A study of Arabidopsis thaliana with 8 samples.

Results

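In this RNA-seq series, 46 of the 37065 nuclear genes of *Arabidopsis thaliana* were at low levels compared with WT in all 3 mutants, which were the single mutant *fry1-6* and the 2 double mutants built on it. They were chosen on measured values. A gene had to reach 5 CPM (its count scaled by the total on nuclear genes of the library) in each of the 2 WT libraries, which 14243 genes did. The mean of each mutant then had to be at most 0.45 of the WT mean. The low level in the mutants is therefore what defined these genes, and calls against WT are printed only as description. Tests were kept for differences between the mutants, although the rule capped all 3 mutant means and so narrowed those differences as well.

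All plants were of ecotype Col-0, and RNA came from whole seedlings of 12 days that the labels place at 23 °C with 16 h of light. The WT group carried no mutation. *fry1-6* is a T-DNA insertion allele of *FRY1*, and both double mutants carried it too. The *fry1-6 rdr6-11* (below, the *rdr6* double mutant) adds *rdr6-11*, and the *fry1-6 rdr1-1* (the *rdr1* double mutant) adds *rdr1-1*, the latter also a T-DNA allele. Each of the 4 genotypes had 2 libraries, described as biological replicates, so p-values measure the spread between these samples. The genotype entry of both libraries titled *fry1rdr1* names the *rdr6* double mutant, and the titles and the series design were followed here. No *rdr6-11* or *rdr1-1* single mutant was among the samples, so an effect of an *rdr* allele alone could not be separated from one that needs *fry1-6*.

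FRY1, also called SAL1, is a phosphatase that breaks down 3′-phosphoadenosine 5′-phosphate (PAP), a by-product of sulfation reactions. PAP inhibits the XRN exoribonucleases, which degrade RNA from its 5′ end. The RNA-dependent RNA polymerases RDR6 and RDR1 turn single-stranded RNA into double strands, from which Dicer-like enzymes cut small interfering RNAs. The alleles of FRY1 are also known for altered responses to cold, drought and stress hormones.

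The libraries held between 15069329 and 26285519 counts. The lowest count of any of the 46 genes in any library was 11. Chloroplast genes took between 0.0342% and 0.173% of the counts in WT and *fry1-6*, and between 2.29% and 2.80% in the double mutants. This gap separates WT and *fry1-6* from both double mutants. In comparing the double mutants with *fry1-6*, an *rdr* allele and any other difference between these sets of libraries cannot be told apart. The comparisons of the double mutants with WT, which the rule used, cross the same gap. There the genotype and any other such difference cannot be told apart either. *FRY1* (AT5G63980) was at 43.9 and 25.7 CPM in WT and at 101 and 92.9 CPM in *fry1-6*. The *rdr6* double mutant had 14.1 and 25.9 CPM of *RDR6* (AT3G49500) beside 35.3 and 18.9 CPM in WT, and the *rdr1* double mutant had 27.4 and 18.8 CPM of *RDR1* (AT1G14790) beside 17.6 and 8.77 CPM in WT. Reads of a disrupted allele are counted too, so these levels check no label. The genotype names used here therefore rest on the titles and the series design. Of 18 root markers, only 2 reached 5 CPM in both WT libraries. The summed level of the 18 was 45.7 and 29.5 CPM in WT and 72.8 and 37.4 CPM in *fry1-6*, which overlap. In the double mutants it was between 66.4 and 87.2 CPM. The 8 leaf mesophyll markers summed to 49555 and 33183 CPM in WT and to between 33982 and 60350 CPM in the mutants. The part of any such difference in the low level of the 46 genes was not tested. In bulk seedlings fewer cells of a type and less RNA per cell cannot be told apart.

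Mean levels of the 46 genes in WT ran from 6.77 to 1149.9 CPM, with a median of 57.8 CPM against 25.5 CPM over all 14243 genes past the WT minimum. Median ratios to WT were 0.349 in *fry1-6*, 0.255 in the *rdr6* double mutant and 0.277 in the *rdr1* double mutant. Over all genes past the minimum, the same medians were 1.02, 1.23 and 1.00. Taken one mutant at a time, 131, 623 and 352 genes were at or under the limit. The genes just inside the limit were *BZIP60*, with a highest ratio of 0.445, then *THIC*, AT4G38550, AT4G38552, AT1G24140 and AT5G23240, with highest ratios between 0.439 and 0.442. Just outside it lay AT5G54710, *MLP28*, AT4G23670, *Hsp70-2*, *ELI3-1* and *KIN2*, with highest ratios between 0.453 and 0.459.

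**Figure D1:**
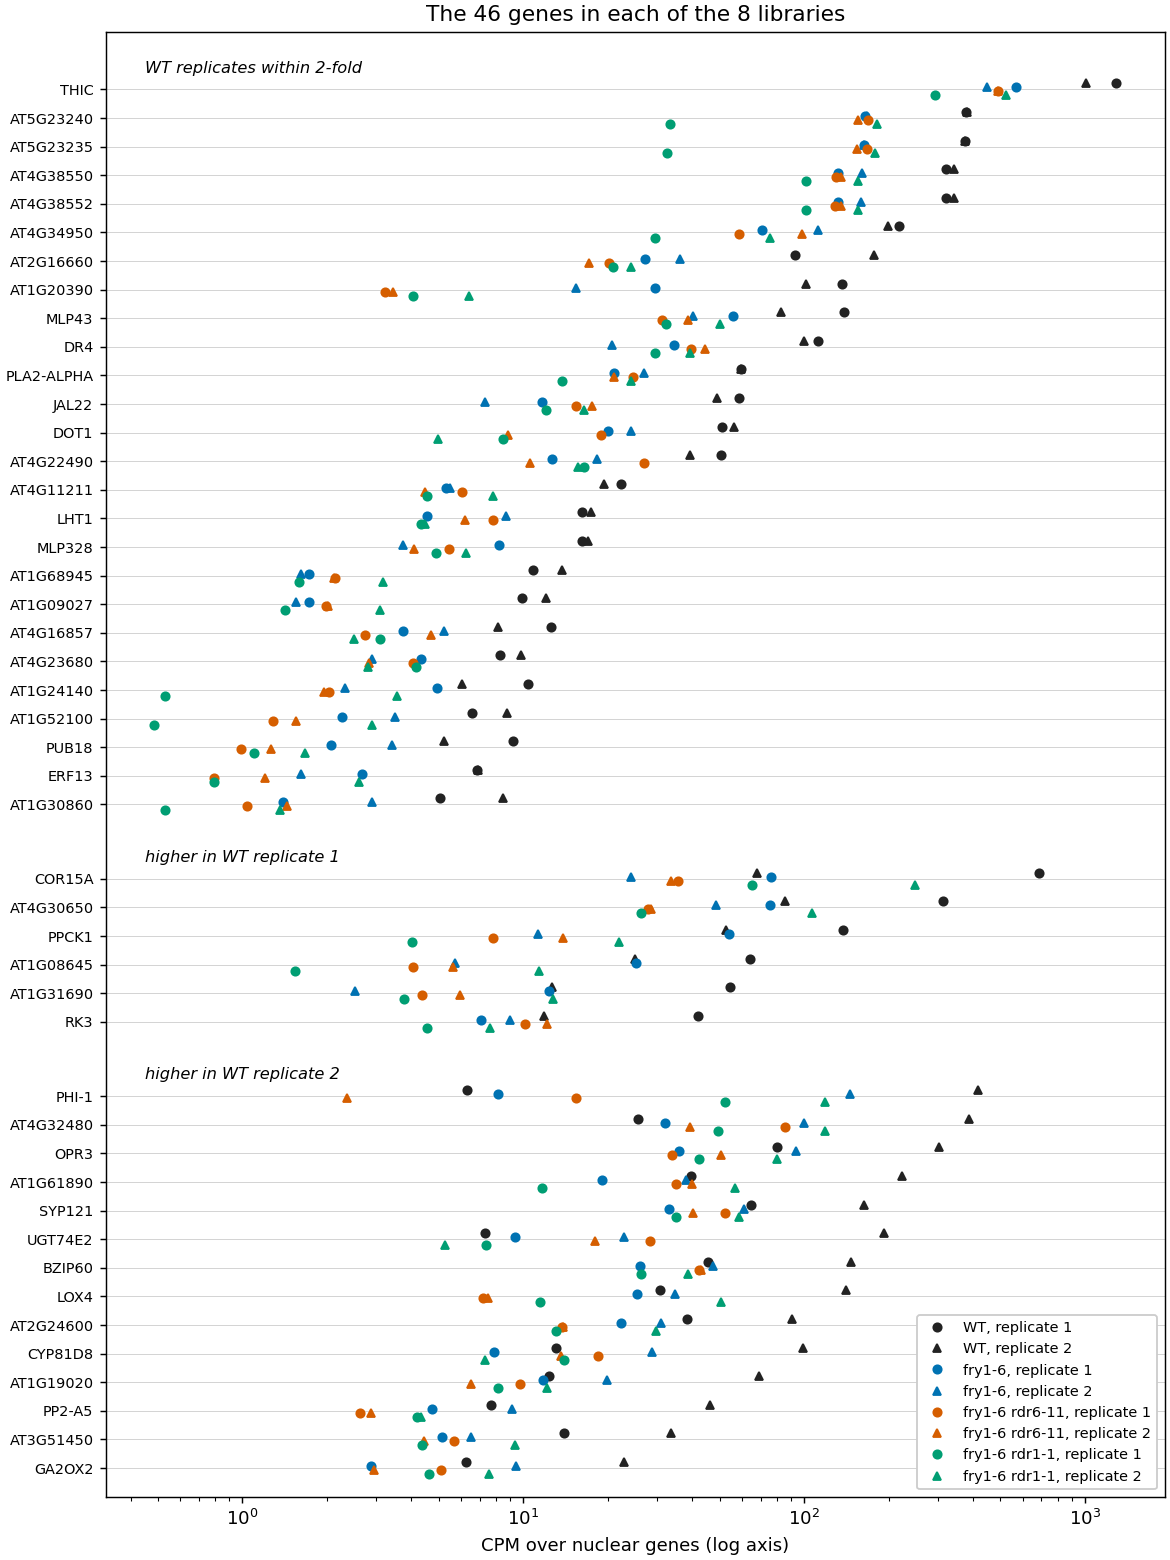
CPM over nuclear genes on a log axis for each of the 46 genes (rows), with a point for each library (colour for genotype, circle for replicate 1 and triangle for replicate 2). In the upper block of 26 genes both WT libraries lie to the right of all 6 mutant libraries, and in the lower blocks of 6 and 14 genes the WT libraries are far apart.

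The WT libraries themselves divided the 46 genes into 3 classes. In 26 genes the WT replicates lay within 2-fold of each other. In 6 genes WT replicate 1 was more than 2-fold above replicate 2, and in 14 genes WT replicate 2 was more than 2-fold above replicate 1. Among all genes past the WT minimum these classes held 89.6%, 3.69% and 6.75%, against 56.5%, 13.0% and 30.4% of the 46 genes. In 29 of the 46 genes, all 6 mutant libraries were below both WT libraries, which held for 4.18% of the genes past the minimum. The 29 comprised all 26 genes with close WT replicates, none of the 6 and 3 of the 14. This class boundary was set after the values were seen, and the rule on means favours genes with a high value in 1 WT library. The rule also required low mutant means. With close WT replicates, this largely set in advance that all 6 mutant libraries were below both WT libraries. Nothing is therefore read from the 29 genes beside the share of 4.18%.

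Promoter sequences are shown for 4 genes whose letters hold a motif discussed below. *COR15A* heads the class that was high in WT replicate 1, AT4G30650 follows it, *THIC* is the most abundant of the 46 genes, and *JAL22* is one of those lowest in *fry1-6*. Each run gives the 250 bases before the annotated start in RefSeq's TAIR10.1, read 5′ to 3′ on the strand of the gene. Capitals mark CCGAC or its reverse complement GTCGG in *COR15A* (chr2:17712331-17712580, minus strand). They mark AAAATATCT in AT4G30650 (chr4:14953954-14954203, plus strand), *THIC* (chr2:12666685-12666934, plus strand) and *JAL22* (chr2:16416846-16417095, minus strand). AT4G30650 also holds GTCGG, at position −9 from the start, left in small letters.
COR15A: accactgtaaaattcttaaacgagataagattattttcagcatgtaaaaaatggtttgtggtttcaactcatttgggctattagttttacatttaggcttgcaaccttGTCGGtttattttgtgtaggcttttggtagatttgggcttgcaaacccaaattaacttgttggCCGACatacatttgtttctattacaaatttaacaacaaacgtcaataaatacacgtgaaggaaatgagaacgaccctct
AT4G30650: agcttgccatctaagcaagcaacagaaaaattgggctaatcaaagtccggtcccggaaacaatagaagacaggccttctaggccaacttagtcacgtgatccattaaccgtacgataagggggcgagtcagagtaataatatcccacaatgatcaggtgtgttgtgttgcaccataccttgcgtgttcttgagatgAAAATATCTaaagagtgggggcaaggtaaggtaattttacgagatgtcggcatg
THIC: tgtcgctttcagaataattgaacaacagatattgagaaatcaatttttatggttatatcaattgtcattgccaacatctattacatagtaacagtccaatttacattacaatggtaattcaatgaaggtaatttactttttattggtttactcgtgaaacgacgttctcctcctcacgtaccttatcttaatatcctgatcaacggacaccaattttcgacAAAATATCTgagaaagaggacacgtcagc
JAL22: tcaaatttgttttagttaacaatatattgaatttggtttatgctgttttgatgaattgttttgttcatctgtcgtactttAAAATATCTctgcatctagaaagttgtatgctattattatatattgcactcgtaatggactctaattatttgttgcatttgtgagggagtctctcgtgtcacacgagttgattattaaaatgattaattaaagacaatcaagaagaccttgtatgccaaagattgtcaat

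CCGAC is the core of the element that the cold-induced CBF transcription factors bind. On either strand, within 250 bases before to 50 bases after the start, it was found in 8 of the 46 genes (17.4%), in 16.8% of the genes past the WT minimum and in 15.3% of all 37898 promoters. The 8 genes were *COR15A*, AT4G30650, AT4G32480, AT1G20390, *SYP121*, *PPCK1*, AT1G08645 and *PUB18*. Of these, *COR15A* held 2 copies. AAAATATCT, called the evening element for its role in genes with an evening peak, was found in 5 of the 46 genes (10.9%): *THIC*, AT4G30650, *JAL22*, *RK3* and AT3G51450. It was found in 3.19% of the genes past the minimum and 2.49% of all promoters. Of the fixed circadian clock list, 22 genes were tested and 0 were among the 46. Against WT their median log2 fold changes were 0.19, −1.87 and −0.08 in *fry1-6*, the *rdr6* and the *rdr1* double mutant. There edgeR called 0, 10 and 0 lower, beside 0.387%, 7.94% and 2.07% of all genes, and 1, 2 and 3 higher, *CCA1* each time. Any link between the motif and these levels was not tested. CACGTG, the G-box, was found in 6 of the 46 genes (13.0%), in 8.90% of those past the minimum and in 6.46% of all promoters. The other motifs were searched on both strands in the same way, and the share among genes past the minimum follows each share of the 46. TTGACC was in 8 genes (17.4% against 14.3%), TTGACT in 12 (26.1% against 21.4%) and TATAAA in 24 (52.2% against 49.0%). GATAAG was in 6 genes (13.0% against 15.7%), TGTCTC, whose reverse complement is GAGACA, in 4 (8.70% against 13.4%), AAACCCTA in 2 (4.35% against 5.55%), GCCGCC in 1 (2.17% against 2.79%) and CAATTATTG in 0 (0% against 0.807%). Over all promoters these shares were 13.5%, 21.2%, 48.8%, 15.1%, 14.2%, 6.17%, 2.72% and 0.723%. A match describes letters in this window, and the 46 genes were not chosen independently of the counts, so the motif shares were not tested.

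The most abundant gene with close WT replicates was *THIC* (AT2G29630, chr2:12666935-12671055), the plastid enzyme that makes the pyrimidine part of thiamine. Its levels were 1295 and 1005 CPM in WT, 569 and 448 CPM in *fry1-6*, 491 and 489 CPM in the *rdr6* double mutant, and 292 and 524 CPM in the *rdr1* double mutant. No mutant library came near the lower WT library. The mutant means were 2.26-, 2.34- and 2.82-fold below WT. AT5G23240, encoding a protein with a DNAJ heat shock domain, was at 377 and 379.6 CPM in WT, 165 and 167 CPM in *fry1-6*, 169 and 156 CPM in the *rdr6* double mutant, and 33.3 and 181 CPM in the *rdr1* double mutant. Its 5 other mutant libraries were close to each other, and replicate 1 of the *rdr1* double mutant stood apart.

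The next genes of this class are placed together here by their annotation as transporters or lipid enzymes. No share of such genes among those past the WT minimum is given. AT2G16660, a protein of the major facilitator superfamily, was at 93.0 and 177 CPM in WT, 27.2 and 36.2 CPM in *fry1-6*, 20.2 and 17.2 CPM in the *rdr6* double mutant, and 20.9 and 24.3 CPM in the *rdr1* double mutant. Every mutant library was under 0.45 of the lower WT library. AT4G34950, of the same superfamily, was at 217 and 199.6 CPM in WT and between 29.5 and 112 CPM in the mutants. *LHT1* (AT5G40780), a plasma membrane transporter that takes up amino acids, was at 16.2 and 17.4 CPM in WT and between 4.33 and 8.71 CPM in the mutants. *PLA2-ALPHA* (AT2G06925), which releases fatty acids from phospholipids, was at 59.7 CPM in both WT libraries, 21.0 and 27.0 CPM in *fry1-6*, 24.6 and 21.1 CPM in the *rdr6* double mutant, and 13.8 and 24.2 CPM in the *rdr1* double mutant. AT4G38550, annotated as phospholipase-like, was at 321 and 342 CPM in WT and between 102 and 160.5 CPM in the mutants.

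The next 9 of the 26 had varied annotations, among them lectins and MLP-like proteins. *JAL22* (AT2G39310, chr2:16414034-16416845), a jacalin-related lectin, was at 58.6 and 49.1 CPM in WT, 11.7 and 7.29 CPM in *fry1-6*, 15.4 and 17.6 CPM in the *rdr6* double mutant, and 12.1 and 16.4 CPM in the *rdr1* double mutant. Both *fry1-6* libraries were below all 4 libraries of the double mutants, the nearest being replicate 1 of the *rdr1* double mutant. *DR4* (AT1G73330), named for its repression by drought, was at 112 and 100.3 CPM in WT, 34.6 and 20.6 CPM in *fry1-6*, 39.6 and 44.3 CPM in the *rdr6* double mutant, and 29.4 and 39.3 CPM in the *rdr1* double mutant. Of the MLP-like proteins, *MLP43* (AT1G70890) was at 138 and 82.5 CPM in WT and between 31.1 and 55.9 CPM in the mutants. *MLP328* (AT2G01520) was at 16.2 and 17.0 CPM in WT and between 3.74 and 8.19 CPM in the mutants. The others were AT1G52100 (a mannose-binding lectin), AT4G23680 (polyketide cyclase and lipid transport superfamily), AT4G22490 (lipid-transfer and seed storage superfamily), AT4G16857 (an NBS-LRR resistance protein) and AT1G24140 (a matrixin, or extracellular metalloproteinase). Their WT libraries ran from 6.07 to 50.4 CPM and did not overlap with the mutants for any of these genes.

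Among the regulators of the class, *ERF13*, *PUB18* and AT1G30860 were under 10 CPM in WT. *ERF13* (AT2G44840), a transcription factor of the ethylene response factor family, was at 6.84 and 6.88 CPM in WT, 2.66 and 1.61 CPM in *fry1-6*, 0.793 and 1.21 CPM in the *rdr6* double mutant, and 0.795 and 2.61 CPM in the *rdr1* double mutant. *PUB18* (AT1G10560), a U-box ubiquitin ligase, was at 9.21 and 5.22 CPM in WT, 2.06 and 3.42 CPM in *fry1-6*, 0.992 and 1.27 CPM in the *rdr6* double mutant, and 1.1 and 1.68 CPM in the *rdr1* double mutant. In both genes the double mutants were mostly below *fry1-6*, with replicate 2 of the *rdr1* double mutant as the exception for *ERF13*. AT1G30860, a RING/U-box protein, was at 5.05 and 8.48 CPM in WT and between 0.530 and 2.90 CPM in the mutants. *DOT1* (AT2G36120), a glycine-rich protein required for vein patterning, was at 50.9 and 56.5 CPM in WT, 20.0 and 24.2 CPM in *fry1-6*, 18.9 and 8.80 CPM in the *rdr6* double mutant, and 8.48 and 4.99 CPM in the *rdr1* double mutant.

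The lowest ratios in both double mutants belonged to AT1G20390 (chr1:7065494-7071561, plus strand), a locus of a single exon that RefSeq classes as a pseudogene. It was at 136 and 101 CPM in WT, 29.4 and 15.4 CPM in *fry1-6*, 3.22 and 3.45 CPM in the *rdr6* double mutant, and 4.06 and 6.39 CPM in the *rdr1* double mutant. The levels were thus ordered WT, *fry1-6*, double mutants, with no overlap between these 3 sets of libraries. Mean ratios to WT were 0.188, 0.0281 and 0.0440, or 5.31-, 35.6- and 22.7-fold below WT. AT4G11211, an uncharacterized protein, was at 22.3 and 19.4 CPM in WT and between 4.49 and 7.80 CPM in the mutants.

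The remaining genes of the class share their reads with another of the 46, because 4 pairs of genes overlap and the strand setting of the counting is not given in the sources used here. AT4G38552, a long noncoding RNA, overlaps AT4G38550 over 3130 bases on the other strand, and their CPM ratio was between 1.00 and 1.01 in every library. AT5G23235, a transcribed pseudogene, overlaps AT5G23240 over 1721 bases with a ratio between 0.977 and 0.993. The small nucleolar RNA AT1G09027 lies inside AT1G68945, an uncharacterized protein on the other strand, at a ratio between 0.879 and 1.00. AT1G68945 was at 10.8 and 13.7 CPM in WT and between 1.59 and 3.16 CPM in the mutants. Each of these pairs counts as 1 measurement at most. *THIC*, AT1G19020 and AT4G16857 each overlap an annotated gene outside the 46. The fourth pair, *PPCK1* and AT1G08645, overlaps over 472 bases and belongs to the class that was high in WT replicate 1.

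*COR15A* (AT2G42540, chr2:17710441-17712330), which protects chloroplast membranes during freezing, led the 6 genes that were high in WT replicate 1. It was at 687 and 68.0 CPM in WT, 76.2 and 24.2 CPM in *fry1-6*, 35.6 and 33.6 CPM in the *rdr6* double mutant, and 65.5 and 248 CPM in the *rdr1* double mutant. WT replicate 1 was 10.1-fold above replicate 2, and replicate 2 of the *rdr1* double mutant was above WT replicate 2. AT4G30650, of a family responsive to low temperature and salt, was at 312 and 85.5 CPM in WT, 75.4 and 48.8 CPM in *fry1-6*, 27.7 and 28.5 CPM in the *rdr6* double mutant, and 26.3 and 107 CPM in the *rdr1* double mutant. It had the same 2 high libraries as *COR15A*.

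*PPCK1* (AT1G08650), the kinase that phosphorylates phosphoenolpyruvate carboxylase, was at 137 and 52.6 CPM in WT, 54.3 and 11.3 CPM in *fry1-6*, 7.78 and 13.9 CPM in the *rdr6* double mutant, and 4.02 and 22.0 CPM in the *rdr1* double mutant. AT1G08645, which overlaps it, was at 64.3 and 25.0 CPM in WT. AT1G31690, a copper amine oxidase, was at 54.4 and 12.7 CPM in WT and between 2.52 and 12.7 CPM in the mutants. *RK3* (AT4G21380), a receptor kinase, was at 41.7 and 11.9 CPM in WT and between 4.55 and 12.1 CPM in the mutants. In all 6 genes at least 1 mutant library was above WT replicate 2.

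The 20 names of the fixed list for cold and drought response, some of them synonyms, stood for 17 genes. Of these, 11 passed the WT minimum and *COR15A* was the only member of the 46. The 17 genes summed to 5272 and 1984 CPM in WT, 2163 and 2115 CPM in *fry1-6*, 1220.5 and 1171 CPM in the *rdr6* double mutant, and 1800.2 and 3704 CPM in the *rdr1* double mutant. WT replicate 1 and replicate 2 of the *rdr1* double mutant were the 2 highest libraries, as for *COR15A*. Against WT in *fry1-6*, edgeR called 0 of the 17, with 2 at an unadjusted p under 0.05 and 0 called by DESeq2. In the *rdr6* double mutant the dehydrins *ERD10* and *RAB18* and the membrane protein gene *COR413-PM1* were called lower, beside 7.94% of all genes, and in the *rdr1* double mutant *LTI65* was called higher. DESeq2 called 13 of the 17 in the *rdr6* double mutant and 1 in the *rdr1* double mutant, and the same numbers, 13 and 1, had an unadjusted p under 0.05 in edgeR. No share over all genes is given for DESeq2 or unadjusted p, so these counts cannot be set against a background. The medians of the log2 fold changes were −0.85, −2.52 and −0.14, against −0.03, 0.04 and 0.05 over all genes tested. They include *COR15A*, which the rule chose on this contrast. Between the mutants *RAB18* was the 1 gene that edgeR called, lower in the *rdr6* double mutant than in *fry1-6* (log2 fold change −2.73, adjusted p = 0.0165 by edgeR) and than in the *rdr1* double mutant (−2.28, adjusted p = 0.0422 by edgeR). For the *rdr6* double mutant over *fry1-6*, the *rdr1* double mutant over *fry1-6*, and the *rdr6* over the *rdr1* double mutant, DESeq2 called 6, 1 and 7 of the 17, and 5, 1 and 9 had an unadjusted p under 0.05 in edgeR. Over all genes tested, edgeR called 4.76%, 0.264% and 1.1% in these comparisons.

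The 14 genes that were high in WT replicate 2 had the widest spread. *PHI-1* (AT1G35140), of the phosphate-responsive 1 family, was at 6.33 and 415 CPM in WT, 8.12 and 145 CPM in *fry1-6*, 15.4 and 2.36 CPM in the *rdr6* double mutant, and 52.3 and 119 CPM in the *rdr1* double mutant. WT replicate 2 was 65.6-fold above replicate 1, and 5 of the 6 mutant libraries were above WT replicate 1. *UGT74E2* (AT1G05680), a glycosyltransferase that acts on the auxin precursor indole-3-butyric acid, was at 7.29 and 193 CPM in WT, 9.39 and 22.8 CPM in *fry1-6*, 28.4 and 18.0 CPM in the *rdr6* double mutant, and 7.38 and 5.26 CPM in the *rdr1* double mutant. AT4G32480, a DUF506 protein, was at 25.6 and 385 CPM in WT and between 32.1 and 118 CPM in the mutants, all above WT replicate 1.

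Enzymes of jasmonate synthesis were in this class. *OPR3* (AT2G06050), which reduces 12-oxo-phytodienoic acid, was at 79.8 and 302 CPM in WT, 35.9 and 93.4 CPM in *fry1-6*, 33.8 and 50.5 CPM in the *rdr6* double mutant, and 42.1 and 79.9 CPM in the *rdr1* double mutant. *LOX4* (AT1G72520), a lipoxygenase of the same pathway, was at 30.7 and 141 CPM in WT, 25.4 and 34.8 CPM in *fry1-6*, 7.19 and 7.48 CPM in the *rdr6* double mutant, and 11.5 and 50.8 CPM in the *rdr1* double mutant. Both genes overlapped between WT and the mutants because of WT replicate 1. On the fixed list for jasmonate synthesis and response, 25 names were matched, 18 passed the WT minimum, 24 were tested and these 2 were among the 46. Their summed level was 3141 and 2296 CPM in WT, 1292 and 1599.7 CPM in *fry1-6*, 1386 and 1547 CPM in the *rdr6* double mutant, and 1729.7 and 3910.3 CPM in the *rdr1* double mutant. The gap between the WT sums was smaller than that of *LOX2* alone, at 1144 and 210.2 CPM in WT. Against WT, edgeR called 1, 4 and 1 of the 24 lower in the 3 mutants, beside 0.387%, 7.94% and 2.07% of all genes tested. DESeq2 called 4, 8 and 2 of the 24 in either direction, and 5, 9 and 3 had an unadjusted p under 0.05 in edgeR, again with no share over all genes. The medians of the log2 fold changes over the 24 were −1.07, −1.24 and −0.36. The defensin gene *PDF1.2*, at only 1.47 and 1.03 CPM in WT and between 0 and 0.0645 CPM in the mutants, was called in all 3. In the *rdr6* double mutant *LOX3*, *LOX4* and *AOS* were called. The rule chose *OPR3* and *LOX4* on this contrast, so nothing is read from their part in these calls and medians. Between the mutants edgeR called 0 of the 24 in any comparison, while 3, 4 and 7 had an unadjusted p under 0.05 and DESeq2 called 2, 2 and 3 (the *rdr6* double mutant over *fry1-6*, the *rdr1* double mutant over *fry1-6*, and the *rdr6* double mutant over the *rdr1* double mutant).

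The other 9 genes of the class had varied annotations. *SYP121* (AT3G11820), a plasma membrane syntaxin known for resistance to fungal entry, was at 64.9 and 164 CPM in WT and between 33.0 and 61.3 CPM in the mutants, with no overlap. *BZIP60* (AT1G42990), a transcription factor of the unfolded protein response, was at 45.6 and 146 CPM in WT and between 26.1 and 47.3 CPM in the mutants. *GA2OX2* (AT1G30040), which inactivates gibberellins, was at 6.27 and 22.9 CPM in WT and between 2.86 and 9.42 CPM in the mutants. *PP2-A5* (AT1G65390), of the phloem protein 2 family, was at 7.67 and 46.2 CPM in WT and between 2.63 and 9.16 CPM in the mutants. The remaining 5 were AT1G61890 (a MATE efflux protein), AT2G24600 (ankyrin repeats), *CYP81D8* (AT4G37370, a cytochrome P450), AT1G19020 and AT3G51450, of which AT2G24600 and AT3G51450 did not overlap between WT and the mutants.

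Libraries with the same replicate number moved together in WT and *fry1-6*, and not only in the 46 genes. The correlation of deviations from the genotype mean was 0.722 over 22606 genes and 0.820 over the 46. In all 14 genes that were high in WT replicate 2, *fry1-6* replicate 2 was above *fry1-6* replicate 1, and in 5 of the 6 genes that were high in WT replicate 1, *fry1-6* replicate 1 was the higher. In the double mutants, replicate 2 was above replicate 1 in 6 and 12 of the 14. Within replicate number 1, *fry1-6* was below WT in 11 of the 14 and at or under 0.45 of WT in 2 of them. Within number 2, it was at or under 0.45 in all 14. Of the 26 genes with close WT replicates, *fry1-6* was below WT within both numbers in 26, and at or under 0.45 within both numbers in 14. Over all 46 genes, 43 were below WT within both numbers. The rule used these same values, so low *fry1-6* levels within a number were largely set in advance. Nothing is read from these counts, and no share over all genes is given beside them. What a replicate number had in common across genotypes is not stated, and its part in these values was not tested.

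**Figure D2:**
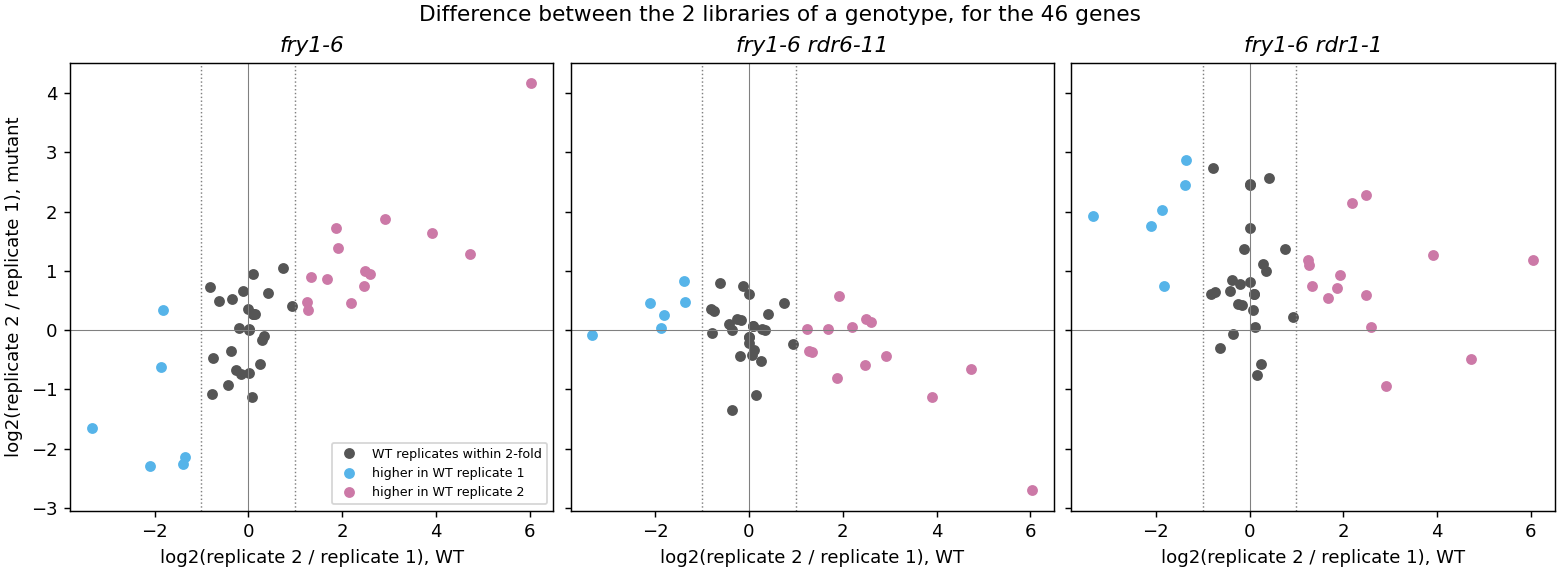
Log2 ratio of replicate 2 to replicate 1 in each mutant (y axis, 1 panel per mutant) against the same ratio in WT (x axis), with a point for each of the 46 genes coloured by class and dotted lines at a 2-fold difference in WT. In *fry1-6* all 14 genes that were high in WT replicate 2 lie above 0, and in the *rdr1* double mutant 40 of the 46 genes do.

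Replicate 2 of the *rdr1* double mutant was above replicate 1 in 40 of the 46 genes, compared with 53.0% of all genes past the WT minimum. In the *rdr6* double mutant this was so in 24. The widest gaps in the *rdr1* double mutant among genes with close WT replicates were those of AT5G23240, AT1G24140 and AT1G52100, the last at 0.486 and 2.89 CPM. Requiring every mutant library to be at most 0.45 of the lower WT library left 8 genes: AT2G16660, AT1G20390, *DR4*, *JAL22*, AT4G11211, *ERF13* and the overlapping AT1G68945 and AT1G09027. With any 1 of the 8 libraries left out, those 8 and AT1G30860 still met the rule, and the other 37 were lost without some library. Without WT replicate 1, 13 of the 46 were lost, and without WT replicate 2, 16.

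**Figure D3:**
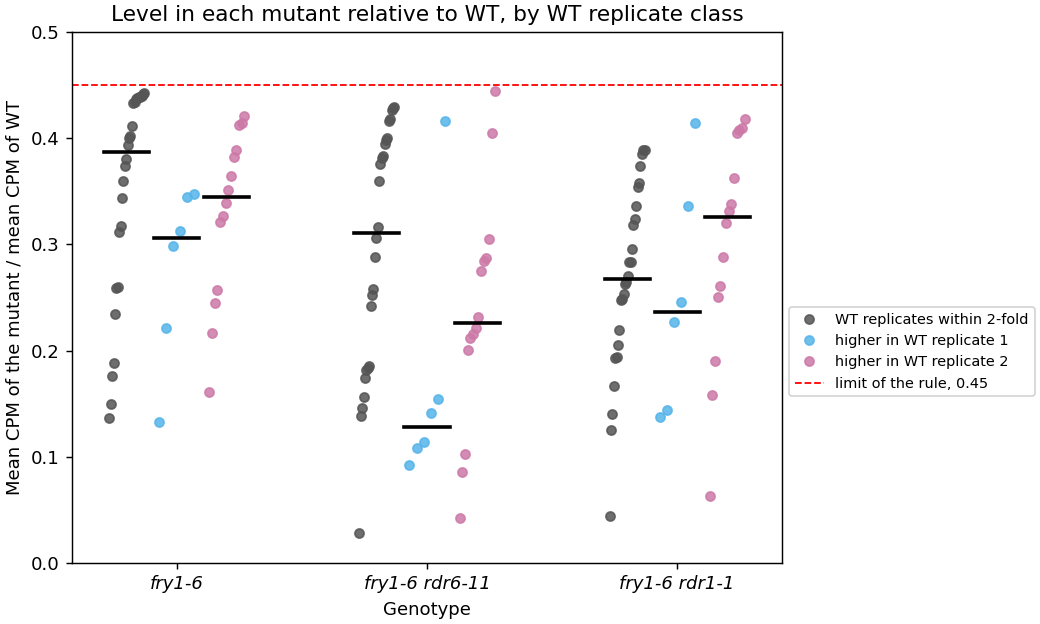
Ratio of the mean CPM of each mutant to the mean CPM of WT, with a point for each of the 46 genes, in columns by class of WT replicates, black bars at the class medians and a dashed line at the limit of 0.45 that the rule set. Class medians run from 0.128 to 0.387, and AT1G20390 is the lowest point in both double mutants.

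All 46 genes passed the filter on low counts and were among the 22744 genes fitted with edgeR. Against WT, the contrast that chose them, 10 were called lower at an adjusted p under 0.05 in *fry1-6*, 28 in the *rdr6* double mutant and 19 in the *rdr1* double mutant. Over all genes tested, 0.387%, 7.94% and 2.07% were called lower. Since the rule used this contrast, nothing is read from these counts. Medians of the log2 fold changes were −1.64, −2.36 and −1.93 for the 46 genes, and −0.03, 0.04 and 0.05 over all genes tested. All 10 calls in *fry1-6* and all 19 in the *rdr1* double mutant were in the class with close WT replicates, as were 23 of the 28 in the *rdr6* double mutant. There were 10 genes called in all 3 mutants (AT2G16660, AT1G20390, *DR4*, *PLA2-ALPHA*, *JAL22*, AT4G11211 and the pairs AT4G38550 with AT4G38552 and AT1G68945 with AT1G09027), and 18 called in none. No share over all genes is given for calls in all 3, for calls in none or for the split by class. These too come from the contrast that the rule used, so nothing is read from them.

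Which of the 46 genes differed between the mutants was asked with the same fit. With 2 libraries against 2, an exact permutation test of a single value cannot fall below 0.333, so these tests rest on a spread estimated across genes. Between the *rdr6* double mutant and *fry1-6*, 1 of the 46 genes was called, against 4.76% of all genes tested in either direction. It was AT1G20390, for which both libraries of the *rdr6* double mutant were below both of *fry1-6*. The log2 fold change was −3.02 (SE 0.39, adjusted p = 0.0164 by the quasi-likelihood test of edgeR, corrected over all genes after Benjamini and Hochberg). Over the alternatives its adjusted p ran from 3.83e-11 to 0.176. The call was lost without *fry1-6* replicate 1 (log2 fold change −2.49, adjusted p = 0.0624) and without either library of the *rdr6* double mutant, where the log2 fold change stayed at −3.05 and −3.06 (adjusted p = 0.144 and 0.176).

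Between the *rdr1* double mutant and *fry1-6*, edgeR called 0 of the 46 genes, against 0.264% of all genes tested. At an unadjusted p under 0.05 there were 3, and DESeq2 called 2. AT1G20390 was lower in the *rdr1* double mutant by edgeR's fit with a log2 fold change of −2.04 (SE 0.37, adjusted p = 0.123), and *DOT1* had a log2 fold change of −1.66 (SE 0.42, adjusted p = 0.180). DESeq2 called both, with adjusted p of 7.36e-05 and 0.0101. Over all alternatives the adjusted p of AT1G20390 ran from 7.36e-05 to 0.503 and that of *DOT1* from 0.0101 to 0.503. The third was *JAL22*, with a log2 fold change of 0.64 (SE 0.27, adjusted p = 0.311).

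Between the 2 double mutants, edgeR called 0 of the 46 genes, against 1.1% of all genes tested, with 2 at an unadjusted p under 0.05 and 1 called by DESeq2. The 2 were AT1G20390, with a log2 fold change of −0.98 for the *rdr6* double mutant over the *rdr1* double mutant (SE 0.38, adjusted p = 0.272), and *LOX4*, with −2.41 (SE 0.86, adjusted p = 0.240). DESeq2 called *LOX4* with an adjusted p of 0.0288, and over all alternatives it ran from 0.0288 to 0.793. Without replicate 2 of the *rdr1* double mutant the log2 fold change of *LOX4* was −0.99.

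The other genes with an unadjusted p under 0.05 between the *rdr6* double mutant and *fry1-6* were 4 in number. *LOX4* had a log2 fold change of −2.32 (SE 0.86, adjusted p = 0.157). In the same comparison *PUB18* was at −1.56 (SE 0.45, adjusted p = 0.0947), AT2G16660 at −1.04 (SE 0.31, adjusted p = 0.104) and AT2G24600 at −1.23 (SE 0.49, adjusted p = 0.181), none of them past the threshold in the fit of all 8 libraries. DESeq2 called *LOX4*, *PUB18* and AT2G16660 as well as AT1G20390, and AT2G16660 passed in edgeR without WT replicate 1 (adjusted p = 0.0376) or without WT replicate 2 (adjusted p = 0.0372), although neither library enters the contrast. Over all alternatives the adjusted p of AT2G16660 ran from 0.0345 to 0.416.

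**Figure D4:**
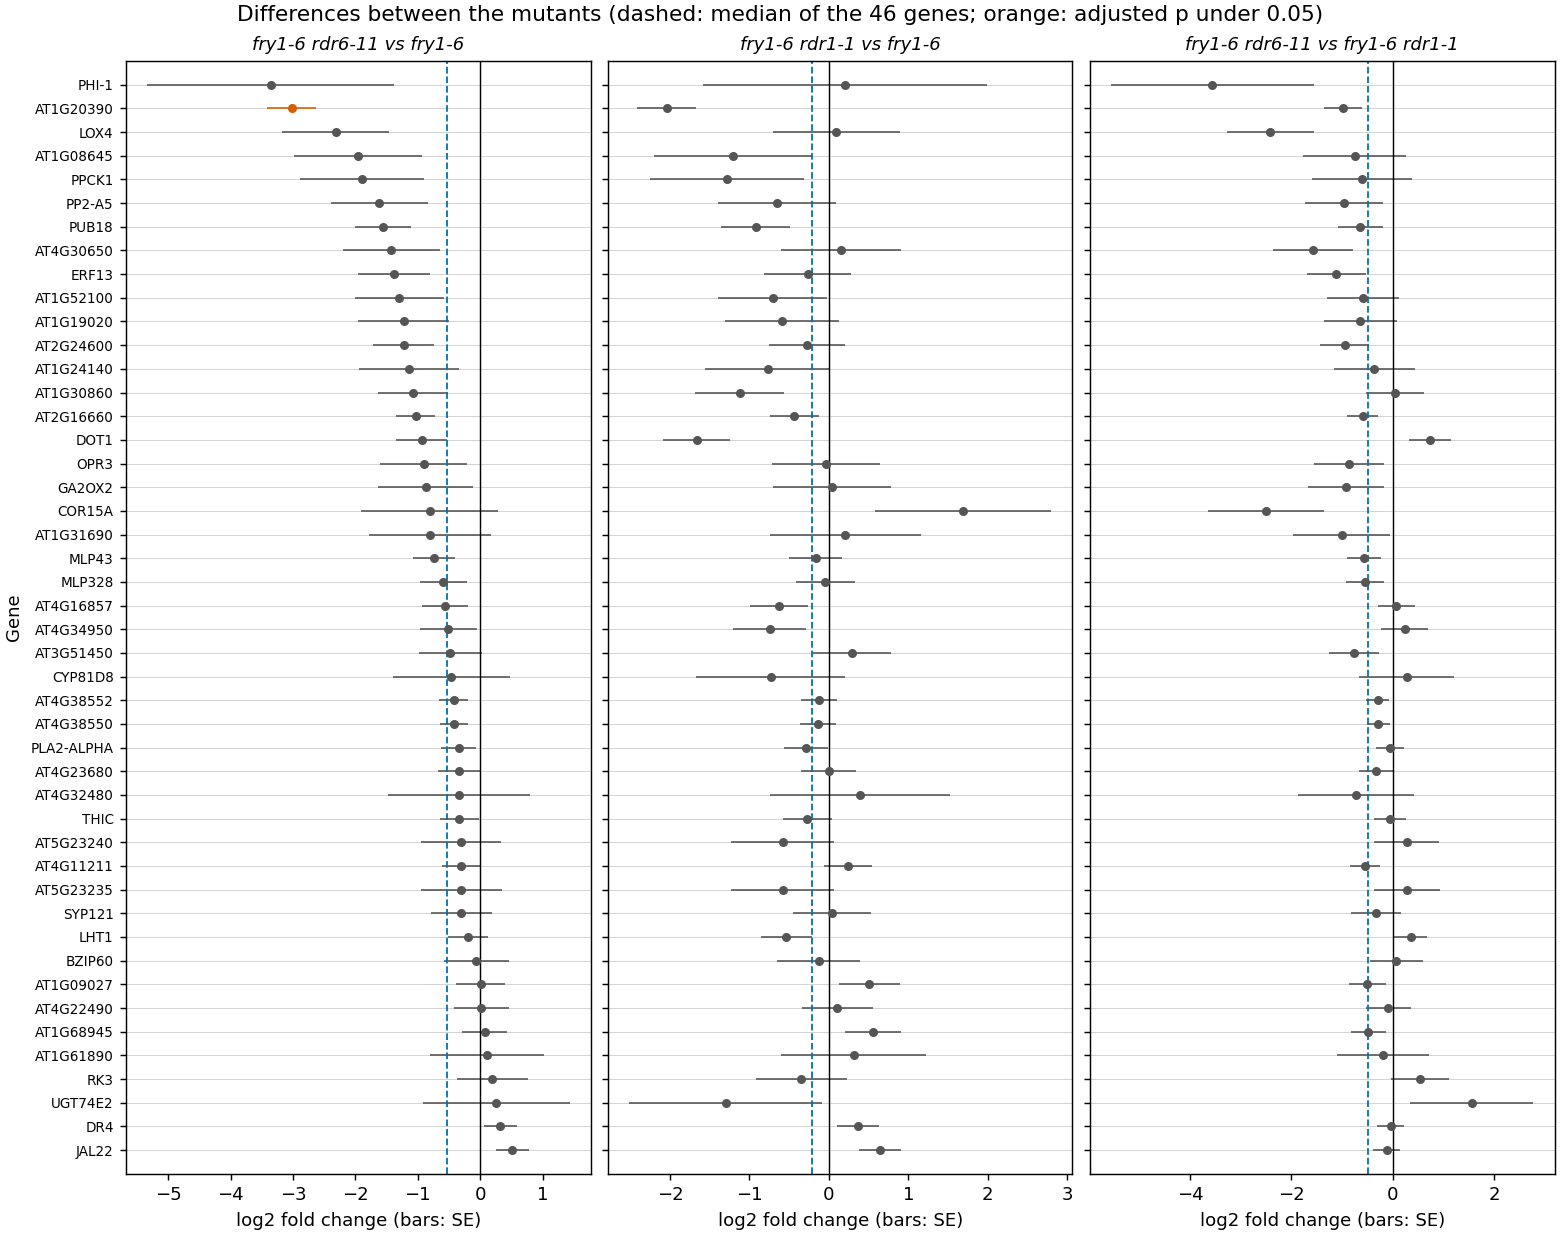
Log2 fold change of each of the 46 genes (rows) in the 3 comparisons between mutants (panels), with bars for the standard error, a dashed line at the median of the 46 genes and orange for an adjusted p under 0.05. AT1G20390 in the *rdr6* double mutant over *fry1-6* is the only orange point, and the medians are −0.54, −0.22 and −0.50.

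The directions of the differences between mutants are given as a description, since the rule used all 3 mutant means and fewest genes met its limit in *fry1-6*. In the fit, 38 were lower and 8 higher in the *rdr6* double mutant than in *fry1-6*, 30 lower and 16 higher in the *rdr1* double mutant than in *fry1-6*, and 35 lower and 11 higher in the *rdr6* double mutant than in the *rdr1* double mutant. The comparisons share libraries. Medians of the log2 fold change were −0.54, −0.22 and −0.50, beside 0.02, 0.02 and 0.02 over all genes tested, with median standard errors of 0.51 in each. With total counts in place of TMM scaling the medians of the 46 genes were −0.28, −0.30 and −0.17. On the CPM scale of the rule, 36, 32 and 27 of the 46 were lower. Without the *rdr1* double mutant replicate 1 the median of the *rdr1* double mutant over *fry1-6* turned to 0.11, and without its replicate 2 that of the *rdr6* double mutant over the *rdr1* double mutant turned to 0.036.

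Features that the rule did not use were compared with the 14243 genes past the WT minimum, as a description. Of the 46 genes 42 were protein coding (91.3% against 95.5%), and 13 had a single exon in every annotated transcript (28.3% against 11.8%), among them *PHI-1*, *DR4*, *DOT1*, *ERF13* and *PUB18*. The median of the largest exon number was 3 against 5, while median exon length was 1709.5 against 1862 bases and GC content 39.5% against 38.9%. Overlap with another annotated gene applied to 11 of the 46 (23.9% against 37.5%). By chromosome, 20 lay on chromosome 1, 10 on 2, 2 on 3, 11 on 4 and 3 on 5. Chromosomes 3 and 5 thus held 4.35% and 6.52% of the 46 genes, against 20.1% and 22.9% of the genes past the minimum.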

How the data were processed

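RNA-seq of 8 libraries from whole seedlings was used, 2 for each of 4 genotypes, grouped by title and design text. The deposited values are raw counts per gene and library. Per the methods and the submitters' processing notes, the authors processed the base calls with CASAVA, mapped reads with STAR 2.6 against Araport11 and counted them with featureCounts 1.6.4 within pRNASeqTools. Reads that mapped to several places were reported once, so near-identical copies may share counts, and overlap and strand settings are not given in the sources used here. The protocol entries of the labels and the methods differ on growth conditions, and those of the labels are given.

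Of 37361 gene identifiers, 37065 (99.2%) were nuclear and matched RefSeq's TAIR10.1, from which symbols, coordinates, exons and promoter letters were taken. CPM was computed over nuclear genes. All 8 libraries entered 1 edgeR 4.0.16 fit (R 4.3.3, limma 3.58.1, TMM scaling, genotype as the only factor, quasi-likelihood test, Benjamini-Hochberg adjustment, filterByExpr with a minimum count of 10 and a minimum total of 15). It tested 22744 genes with 4 residual degrees of freedom and a common biological coefficient of variation of 27.0%. Scripts were tested on simulated data. DESeq2 1.42.0, other scalings and filters, other limits of the rule, a replicate block and fits without each library served as alternatives. Shares over all genes are given only for edgeR calls at an adjusted p under 0.05. Counts by DESeq2 or by unadjusted p therefore have no background here, and nothing is read from their size. Tables and plots were made with Python 3.11.15, pandas 2.3.3, numpy 2.4.6 and matplotlib 3.10.9.

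The 46 genes and the gene lists were chosen with earlier results of these data known. The rule for genes to name took the 12 highest in WT, the 12 with the lowest highest ratio, the 6 on each side of the limit, those called between mutants, those on a list with 2 or more of the 46, neighbours and the mutated genes. The remaining genes are named so that all 46 are accounted for. The cold and drought list, with 1 of the 46, and the clock list, with 0, were described outside this rule. Other lists with 1 of the 46 were not described. Which genes have a value for every library and which a range was chosen after their values were seen. The other fixed lists and cell type markers held at most 1 of the 46 genes each, except lists made from annotation classes. Replicates of each genotype differed by more than counting noise (chi-square per gene between 17.2 and 99.2).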

Additional observations from a re-analysis of the deposited data

How the results depend on the processing

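The number of genes that met the rule depended on scaling and limits. It was 85 with TMM-scaled CPM and 98 with DESeq2 size factors, 24 and 84 at limits of 0.40 and 0.50, and 8 with every mutant library at most 0.45 of the lower WT library. Without 1 library it ran from 34 to 243, the highest without WT replicate 1, with 124 without WT replicate 2 and 74 without *fry1-6* replicate 2. Against WT, calls among the 46 genes in *fry1-6*, the *rdr6* double mutant and the *rdr1* double mutant were 26, 44 and 37 by DESeq2 and 4, 10 and 2 at an adjusted p under 0.01. Fits of only the genotypes compared gave 0 in *fry1-6* and 1 in the *rdr1* double mutant, and an adjusted p under 0.10 gave 18 in *fry1-6*. Without 1 library these calls ran from 5 to 13, 2 to 31 and 2 to 21, and the median log2 fold changes from −1.90 to −1.43, −2.67 to −1.92 and −2.56 to −1.49. The median in the *rdr6* double mutant was −2.42 with DESeq2 size factors, −2.42 with DESeq2 and −2.00 with total counts. The causes were not tested.

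Between the *rdr6* double mutant and *fry1-6*, calls were 4 by DESeq2, 4 in the fit of only these genotypes, 0 at an adjusted p under 0.01, 2 under 0.10 and 0 to 3 without 1 library. DESeq2 called 2 between the *rdr1* double mutant and *fry1-6* and 1 between the double mutants, and without 1 library both stayed at 0. The median log2 fold changes ran from −0.74 to −0.32, −0.61 to 0.11 and −0.87 to 0.036 without 1 library, and were −0.28, −0.30 and −0.17 with total counts. A library left alone in its genotype was assumed to vary like the others. Of 338 alternative values, 273 kept their direction and side of the threshold or stayed near the reported value, 52 moved further, 3 lost and 10 gained a call.

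Equal replicate numbers were not taken as pairs, since the correlation of deviations from the genotype mean was 0.722 for WT and *fry1-6* but between −0.291 and 0.193 for the other 5 combinations. With replicate number as a block, calls against WT were 10, 27 and 18 and the medians −1.58, −2.27 and −1.90. Between the mutants the block gave 1, 0 and 0 calls and medians of −0.54, −0.24 and −0.37. The block was a single term shared by all genotypes, so it cannot represent a link that differs between them. What a pairing of only WT and *fry1-6* would change was not tested.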
